A study of Mus musculus with 12 samples.

Results

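The cell cycle and DNA replication genes of the jejunal crypt were described here as a set of 35 listed genes, 14 of S phase and 21 of mitosis, in A/J and C57BL/6J (B6) mice after common bile duct ligation (CBDL) or sham surgery. Each gene was read from its brightest probe set, the group of array probes that report a single gene, among the probe sets to which the platform table gives only that gene's name. This gave a value for 34 of the 35 genes, all 14 of S phase and 20 of 21 of mitosis, out of 19938 genes measured in this way. The gene left without a value was Ccnb1, a mitotic cyclin, which has no probe set of a single name.

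The study set A/J against B6 mice, inbred strains, to find how the intestine answers to the loss of bile flow. Male mice 8 weeks of age had CBDL or sham surgery, and total RNA of the jejunum was taken 7 days later and put on 12 arrays. The groups were A/J CBDL, A/J sham, B6 CBDL and B6 sham, each with 3 arrays. The labels number the arrays of a group as replicates and say no more of the mice behind them. The p-values therefore rest on the spread of arrays within groups, pooled over the 4 groups, which may be technical in part, and having only 3 arrays in a group limits the precision. Ligation closed the duct with a clip and so kept bile from the gut, while in sham surgery the duct was neither dissected nor ligated. Dissection of the duct and the loss of bile flow therefore cannot be told apart between CBDL and sham mice. The tissue was jejunum, a mix of cell types. The mean signal of 14 villus enterocyte genes lay between 12.2 and 12.4 on the log2 scale on each array. That of 7 smooth muscle genes ran from 6.87 to 9.03, so the share of muscle in the signal varied between arrays. In such tissue, fewer dividing cells and less RNA in each dividing cell cannot be told apart. A strain difference in RNA and a strain difference in how well a probe matches the gene's sequence cannot be told apart either.

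The lining of the small intestine is renewed from stem cells at the base of the crypts, whose daughters divide several times in the crypt before they move onto the villus and stop dividing. Before a cell copies its DNA, the MCM proteins are loaded at replication origins as the core of the helicase, and cyclin E, with its kinase partner, starts S phase. Mitotic genes come on later, in G2 and M, and their RNA falls again as the cell leaves mitosis. Promoters of mitotic genes often carry a CHR element near a CCAAT box, bound by the DREAM and NF-Y complexes, while S-phase promoters often carry E2F sites.

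Promoter sequences were set beside the genes because the rule keeps S-phase and mitotic genes apart. RefSeq promoters of build GRCm38.p6, running 250 bases before to 50 bases after the start of the gene, were at hand for 29 of the 35 genes, with 2 start sites for Mcm7. The letters searched, on both strands, were TTTGAA for the CHR element, CCAAT for the CCAAT box, and TTTGGCGC, TTTCGCGC, TTTCCCGC or TTTGCCGC for E2F. Of the mitotic genes, Ccnb1 included, 12 of 17 (70.6%) held a CHR match and all of those 12 also held a CCAAT box, while a CHR match was present in 17.9% and both matches in 6.95% of all 32851 promoters of the same length. Of the S-phase genes, 1 of 12 (8.33%), Mcm2, held a CHR match, and 5 of 12 (41.7%) held an E2F match, against 1 of 17 mitotic genes, Cdk1, and 2.26% of all promoters. CCAAT boxes were found in 15 of 17 mitotic and 8 of 12 S-phase genes and in 37.4% of all promoters. A match is a run of letters and not a site shown to be bound.

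The promoters of 4 genes show the contrast, each read 5′ to 3′ along the gene, with the matches in capitals. They are Kif23, whose strain difference passed the test in sham and in CBDL mice (chr9:61946750-61947049, minus strand), Aurka, which passed it in CBDL mice (chr2:172370521-172370820, minus strand), Mki67, the gene of the common proliferation marker Ki-67 (chr7:135716330-135716629, minus strand), and Mcm5 as an S-phase helicase gene (chr8:75109259-75109558, plus strand).
Kif23: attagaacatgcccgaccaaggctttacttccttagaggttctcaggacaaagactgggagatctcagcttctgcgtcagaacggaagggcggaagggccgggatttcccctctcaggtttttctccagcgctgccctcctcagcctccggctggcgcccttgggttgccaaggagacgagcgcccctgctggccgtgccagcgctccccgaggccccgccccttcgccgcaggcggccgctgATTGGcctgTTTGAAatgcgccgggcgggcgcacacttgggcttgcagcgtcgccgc
Aurka: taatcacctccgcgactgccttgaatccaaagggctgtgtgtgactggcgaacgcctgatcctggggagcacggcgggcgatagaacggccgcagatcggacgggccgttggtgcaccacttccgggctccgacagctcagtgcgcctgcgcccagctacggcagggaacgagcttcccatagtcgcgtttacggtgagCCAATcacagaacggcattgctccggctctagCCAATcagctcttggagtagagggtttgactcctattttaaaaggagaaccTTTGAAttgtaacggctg
Mki67: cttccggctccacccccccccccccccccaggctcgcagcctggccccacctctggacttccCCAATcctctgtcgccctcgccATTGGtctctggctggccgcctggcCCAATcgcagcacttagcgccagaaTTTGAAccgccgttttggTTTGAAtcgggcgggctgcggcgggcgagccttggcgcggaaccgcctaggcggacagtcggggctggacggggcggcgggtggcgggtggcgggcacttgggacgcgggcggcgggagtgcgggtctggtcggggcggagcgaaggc
Mcm5: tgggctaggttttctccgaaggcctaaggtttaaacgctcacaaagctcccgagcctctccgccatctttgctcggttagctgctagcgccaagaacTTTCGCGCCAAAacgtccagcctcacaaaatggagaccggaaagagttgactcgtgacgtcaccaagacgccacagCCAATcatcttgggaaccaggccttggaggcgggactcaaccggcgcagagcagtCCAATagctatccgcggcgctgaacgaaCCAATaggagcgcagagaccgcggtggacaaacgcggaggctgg
In Kif23 the CCAAT box, here on the opposite strand as ATTGG, lies just before the CHR letters at the start of the gene. In Aurka a pair of CCAAT boxes comes before the CHR letters, and Mki67 holds 2 CHR and 3 CCAAT matches. The E2F letters in Mcm5 are a forward and a reverse match that overlap, followed by 3 CCAAT boxes and no CHR match.

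A/J sham array 1 correlated least with the other arrays over all probe sets, at a mean of 0.970 where the others had 0.979 to 0.984. Across the 12 arrays the mitotic genes were on the whole lowest in A/J CBDL jejunum. Of the 20 mitotic genes, 19 had their lowest group mean in A/J CBDL mice, and of the 14 S-phase genes, 9 did. The highest group mean of a mitotic gene was in B6 CBDL mice for 8 genes, in B6 sham mice for 11 and in A/J sham mice for 1, Cdc20. The S-phase genes were highest in B6 CBDL mice for 10 genes and in B6 sham mice for 4.

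**Figure D1:**
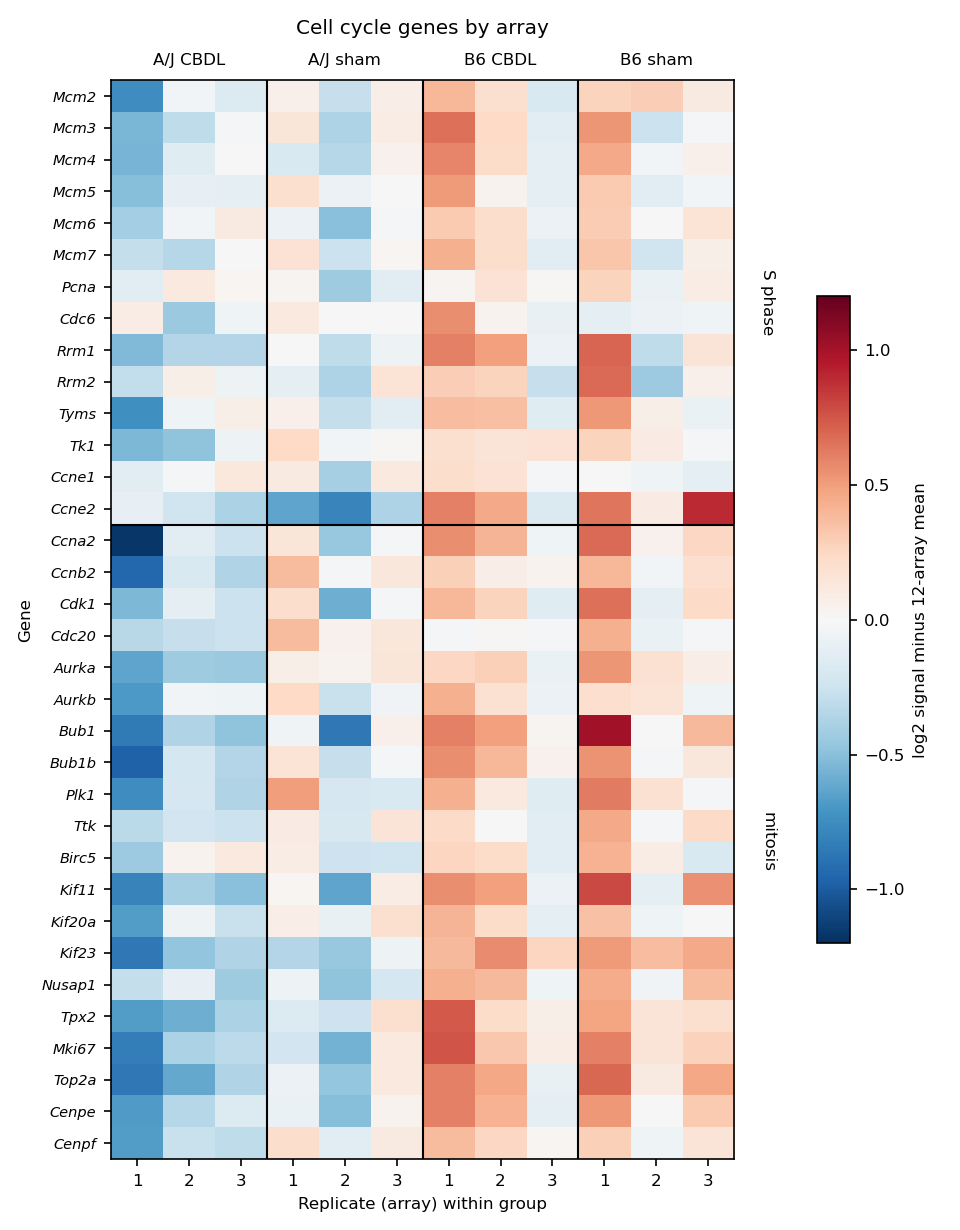
Heat map of the 34 cell cycle genes (rows) on the 12 arrays (columns, 3 in each group). Color is the log2 signal minus the gene's mean over the 12 arrays. The first A/J CBDL array is the lowest of all for 17 of 20 mitotic and 7 of 14 S-phase genes.

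The mean deviation of the 20 mitotic genes from their 12-array means was -0.70, -0.27 and -0.30 on the A/J CBDL arrays and 0.08, -0.33 and 0.04 on the A/J sham arrays. It was 0.44, 0.29 and -0.03 on the B6 CBDL arrays and 0.53, 0.05 and 0.20 on the B6 sham arrays. The A/J CBDL arrays thus lay below all B6 arrays, and 1 A/J sham array lay among the A/J CBDL arrays. For the 14 S-phase genes the mean deviation was -0.39, -0.17 and -0.06 on the A/J CBDL arrays and 0.01, -0.32 and -0.01 on the A/J sham arrays. It was 0.41, 0.23 and -0.09 on the B6 CBDL arrays and 0.37, -0.07 and 0.09 on the B6 sham arrays. These S-phase means overlapped between all 4 groups.

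The mitotic mean minus the S-phase mean on the same array was lowest in A/J CBDL mice and highest in B6 sham mice. Its mean was -0.22 ± 0.11 after CBDL and 0.03 ± 0.04 after sham surgery in A/J mice (SD, n = 3 each). In B6 mice it was 0.05 ± 0.02 after CBDL and 0.13 ± 0.03 after sham surgery (SD, n = 3 each). The A/J CBDL arrays, from -0.31 to -0.10, did not overlap those of any other group. Nor did the B6 sham arrays, from 0.11 to 0.16. In both strains the CBDL arrays thus lay below the sham arrays without overlap. This is a description of the listed genes, and no test was made of it.

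**Figure D2:**
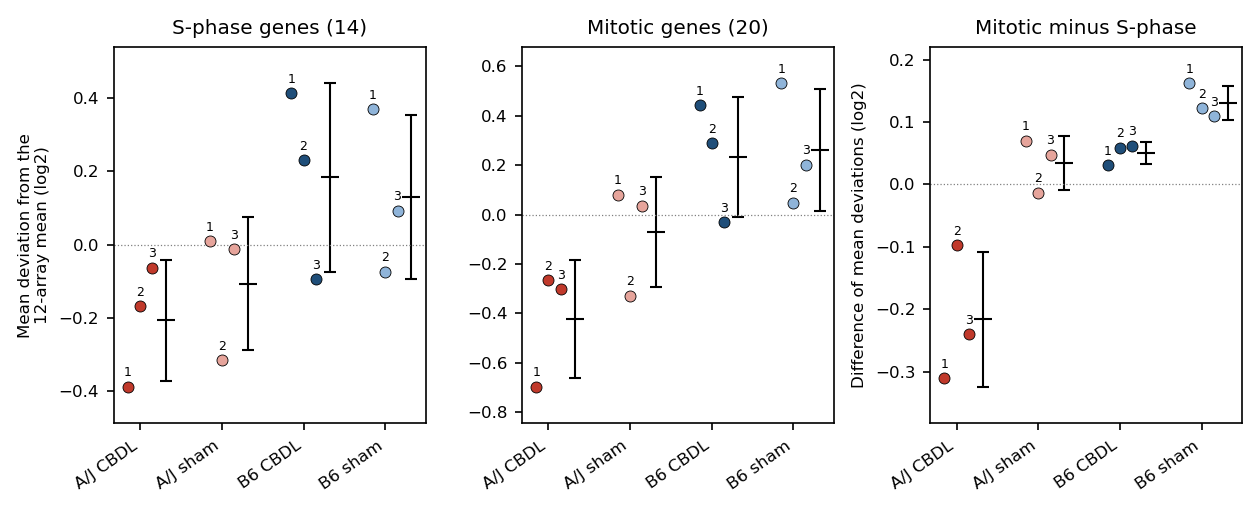
Mean deviation from the 12-array mean (log2) of the 14 S-phase genes, of the 20 mitotic genes, and their difference, by group. Points are arrays with their replicate number, and the bars are the mean and SD of 3 arrays. The difference runs from -0.31 to -0.098 on the A/J CBDL arrays and from -0.013 to 0.16 on the other 9.

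The comparison of strains after CBDL asked whether crypts of A/J and B6 mice differ once bile flow is lost. Kif23, Tpx2 and Aurka were lower in A/J CBDL than in B6 CBDL mice at an adjusted p under 0.05 (limma over 35556 probe sets, Benjamini-Hochberg), and no member was higher. That is 3 of 20 mitotic and 0 of 14 S-phase genes, while 1.78% of all probe sets passed, in either direction. The log2 difference was below 0 for 20 of 20 mitotic genes, with a median of -0.64, and for 14 of 14 S-phase genes, with a median of -0.41. The median over all probe sets of a single gene name was 0.02.

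Kif23, a kinesin of the central spindle needed to finish cytokinesis, had log2 signals of 6.06, 6.45 and 6.55 in A/J CBDL mice, against 7.31, 7.49 and 7.18 in B6 CBDL mice. Each A/J array was below each B6 array. The log2 difference was -0.97 (SE 0.15, adjusted p = 0.00626, limma), which is 0.51 times the B6 level. Tpx2, which activates Aurora A and helps to build the spindle, had signals of 5.70, 5.78 and 5.99 in A/J CBDL mice, against 7.10, 6.59 and 6.44 in B6 CBDL mice. The groups did not overlap, and the difference was -0.89 (SE 0.18, adjusted p = 0.0343, limma). Aurka, which encodes the Aurora A kinase of the spindle poles, had signals of 6.26, 6.47 and 6.45 in A/J CBDL mice, against 7.14, 7.18 and 6.82 in B6 CBDL mice. Again the groups did not overlap, with a difference of -0.65 (SE 0.13, adjusted p = 0.0356, limma).

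The Kif23 call held in 20 of the 21 other ways of processing, and the Aurka and Tpx2 calls in 12 of 21 each. Without B6 CBDL array 1 or 2, or without A/J CBDL array 1 or 2, only Kif23 of the members passed.

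**Figure D3:**
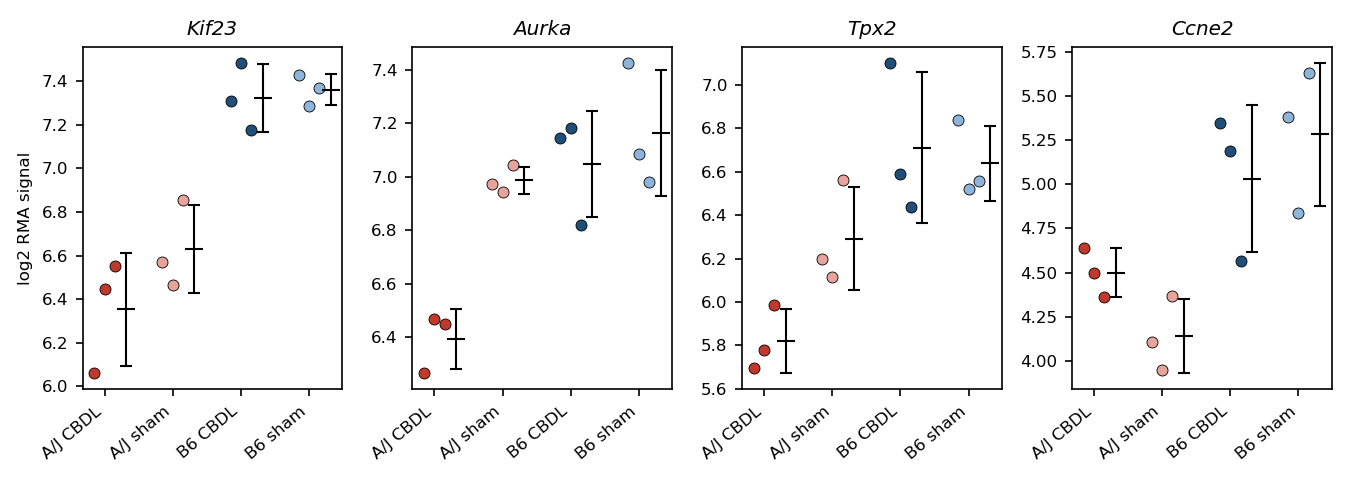
Log2 RMA signal of Kif23, Aurka, Tpx2 and Ccne2 on each array, by group. Points are arrays and the bars are the mean and SD of 3 arrays. For Kif23 all 6 A/J arrays lie below all 6 B6 arrays, and for Aurka the 3 A/J CBDL arrays, from 6.26 to 6.47, lie below all other arrays.

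Bub1 and Bub1b encode a kinase and a pseudokinase of the spindle checkpoint, which holds the cell until its chromosomes are attached. Bub1 had signals of 4.92, 5.41 and 5.29 in A/J CBDL mice, against 6.38, 6.27 and 5.81 in B6 CBDL mice, with no overlap and a difference of -0.94 (SE 0.29, adjusted p = 0.165, limma). Bub1b had 5.76, 6.52 and 6.38 in A/J CBDL mice, against 7.29, 7.14 and 6.79 in B6 CBDL mice, also with no overlap (difference -0.85, SE 0.22, adjusted p = 0.0908, limma). Top2a encodes the topoisomerase that untangles chromosomes. It had signals of 7.02, 7.27 and 7.51 in A/J CBDL mice, against 8.48, 8.34 and 7.79 in B6 CBDL mice, with a difference of -0.94 (SE 0.22, adjusted p = 0.0658, limma). Mki67 had 6.92, 7.37 and 7.43 in A/J CBDL mice, against 8.50, 8.07 and 7.83 in B6 CBDL mice (difference -0.90, SE 0.22, adjusted p = 0.0743, limma). Kif11, the motor that pushes the spindle poles apart, had 5.80, 6.21 and 6.10 in A/J CBDL mice, against 7.16, 7.09 and 6.53 in B6 CBDL mice (difference -0.89, SE 0.27, adjusted p = 0.145, limma). In these 5 genes the arrays of the strains did not overlap and the adjusted p was above the threshold.

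By role, all 5 genes of spindle motors and assembly (Kif11, Kif20a, Kif23, Nusap1, Tpx2) had an unadjusted p under 0.05, with a median difference of -0.89. So had all 4 genes of chromosomes and kinetochores (Mki67, Top2a, Cenpe, Cenpf), with a median of -0.80. For the 7 kinases and checkpoint genes (Aurka, Aurkb, Bub1, Bub1b, Plk1, Ttk and the survivin gene Birc5) the median was -0.57, and for Ccna2, Ccnb2, Cdk1 and Cdc20 it was -0.55. In all, 15 of 20 mitotic and 5 of 14 S-phase genes had an unadjusted p under 0.05, as did 13.7% of all probe sets in either direction. The arrays of A/J CBDL mice lay wholly below those of B6 CBDL mice for 16 of 20 mitotic and 2 of 14 S-phase genes, and for 11.8% of probe sets of a single name.

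Among the S-phase genes, Rrm1, the large subunit of ribonucleotide reductase, had signals of 7.37, 7.54 and 7.54 in A/J CBDL mice, against 8.50, 8.38 and 7.82 in B6 CBDL mice. Its groups did not overlap, with a difference of -0.75 (SE 0.24, adjusted p = 0.170, limma). Rrm2, the small subunit of the same enzyme, differed by -0.19 (SE 0.26, adjusted p = 0.819, limma). The thymidine kinase gene Tk1 had 6.59, 6.65 and 7.06 in A/J CBDL mice, against 7.32, 7.28 and 7.30 in B6 CBDL mice, and was the other S-phase gene without overlap (difference -0.53, SE 0.13, adjusted p = 0.0820, limma). The 6 MCM helicase genes overlapped between the strains, with differences from -0.55 for Mcm3 to -0.27 for Mcm6 and a median of -0.42. Mcm3 had 5.97, 6.22 and 6.50 in A/J CBDL mice, against 7.19, 6.76 and 6.39 in B6 CBDL mice (SE 0.25, adjusted p = 0.370, limma). The gene of the sliding clamp, Pcna, showed the smallest difference of the 34, -0.07 (SE 0.13, adjusted p = 0.871, limma).

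For Pcna and Tk1 the brightest probe set has a number that falls among probe sets of genes on another chromosome, and what else such a probe set reads was not tested. The second Pcna probe set, numbered among genes of the Pcna chromosome, gave the same difference of -0.07. The second Tk1 probe set gave -0.50 (SE 0.12, adjusted p = 0.0743, limma) between the CBDL groups, and -0.19 where the first gave -0.43 between A/J CBDL and A/J sham mice.

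The same question was asked of sham mice. Ccne2 and Kif23 were lower in A/J mice than in B6 mice after sham surgery, which is 1 of 14 S-phase and 1 of 20 mitotic genes, while 1.87% of all probe sets passed. Ccne2 encodes cyclin E2, which drives entry into S phase. It had signals of 4.10, 3.95 and 4.37 in A/J sham mice, against 5.38, 4.84 and 5.64 in B6 sham mice. The groups did not overlap, and the difference was -1.15 (SE 0.23, adjusted p = 0.0313, limma), or 0.452 times the B6 level. Kif23 had 6.57, 6.46 and 6.85 in A/J sham mice, against 7.43, 7.29 and 7.37 in B6 sham mice, again with no overlap (difference -0.73, SE 0.15, adjusted p = 0.0292, limma). Neither gene passed without A/J sham array 1 or 2 or without B6 sham array 1 or 3, and without B6 sham array 2 only Ccne2 passed.

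The medians between sham mice were -0.24 for S-phase and -0.30 for mitotic genes, and 0.03 over all probe sets of a single name. The difference was below 0 for 12 of 14 S-phase and 19 of 20 mitotic genes. At an unadjusted p under 0.05 there were 1 S-phase and 5 mitotic genes, with 15.4% of all probe sets in either direction. The A/J sham arrays lay wholly below B6 sham arrays for 3 genes of each set, with 8.83% of probe sets of a single name. They lay wholly above for 1 S-phase gene, Cdc6, at a difference of 0.12, and the share of probe sets wholly above was not counted. The medians were nearer to 0 than after CBDL, and the count of mitotic genes without overlap was 16 of 20 in CBDL mice and 3 of 20 in sham mice. Whether the strain difference changed with CBDL is the interaction, given further on.

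Of the other genes with large differences between sham mice, Bub1 had 5.73, 4.92 and 5.84 in A/J sham mice, against 6.78, 5.78 and 6.16 in B6 sham mice, with overlap (difference -0.74, SE 0.29, adjusted p = 0.255, limma). Kif11 had 6.63, 5.97 and 6.69 in A/J sham mice, against 7.39, 6.49 and 7.14 in B6 sham mice (difference -0.58, SE 0.27, adjusted p = 0.329, limma). Both sets of values overlapped because B6 sham array 2 was low. The helicase gene Mcm6 had 7.96, 7.53 and 8.01 in A/J sham mice, against 8.33, 8.02 and 8.19 in B6 sham mice (difference -0.35, SE 0.17, adjusted p = 0.363, limma). Mcm4 had 6.29, 6.13 and 6.53 in A/J sham mice, against 6.93, 6.44 and 6.54 in B6 sham mice (difference -0.32, SE 0.21, adjusted p = 0.495, limma). Mcm6 did not overlap between the strains and Mcm4 did.

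**Figure D4:**
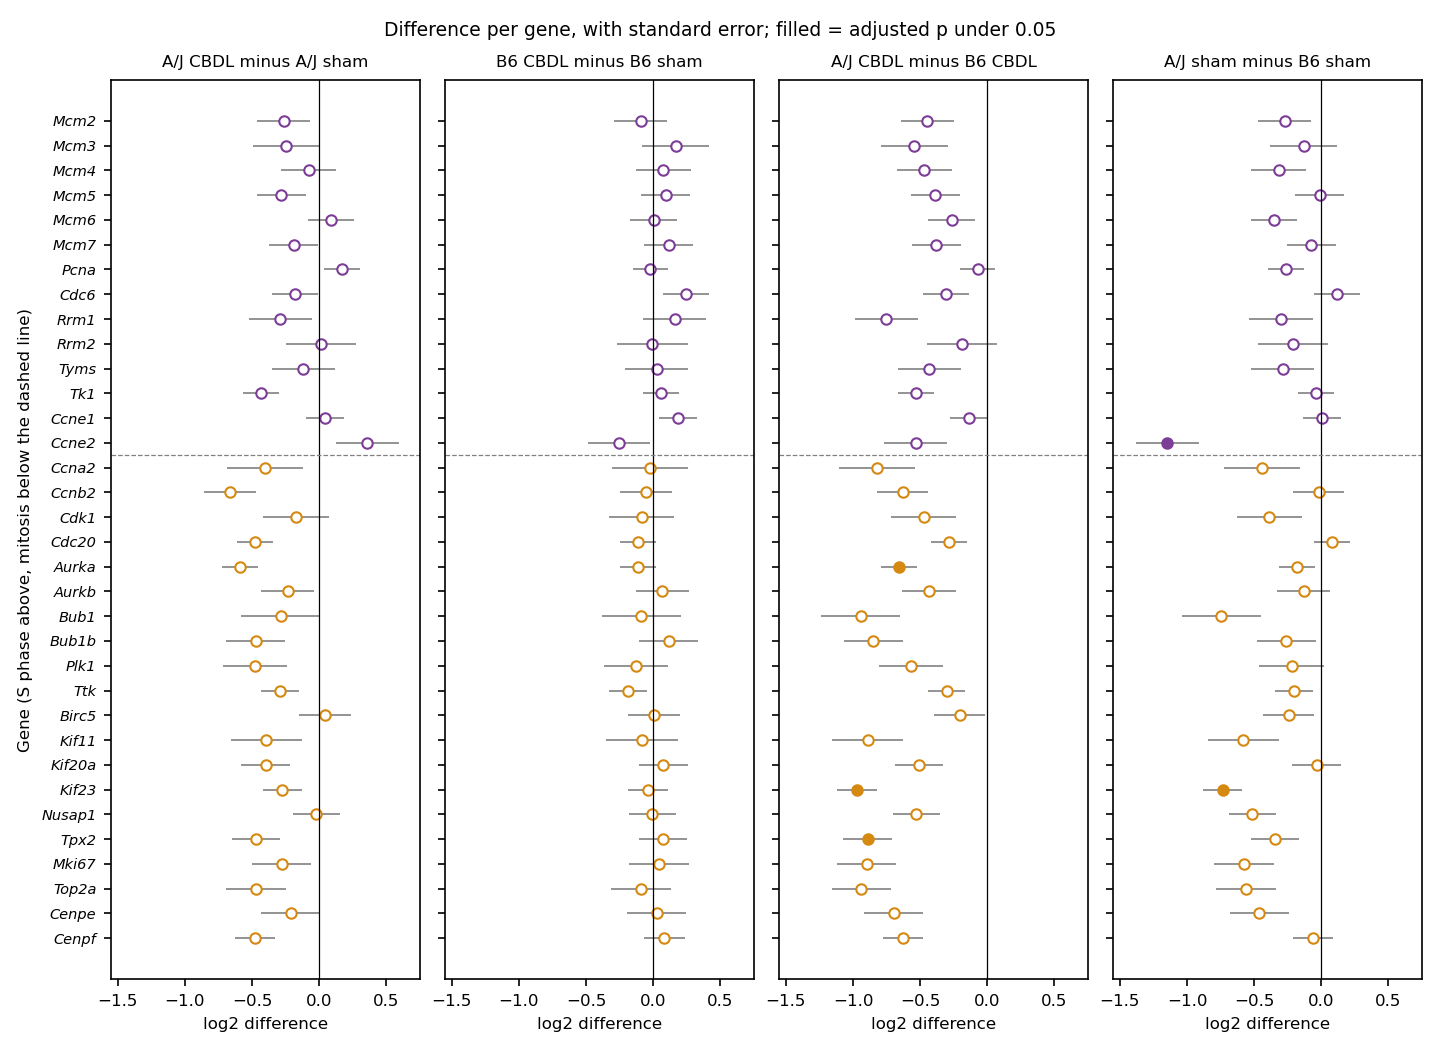
Log2 difference of each of the 34 genes (rows) in the 4 comparisons of 2 groups, with its standard error as a line. Filled points have an adjusted p under 0.05, purple marks S-phase and orange mitotic genes. All 34 points lie below 0 for A/J CBDL minus B6 CBDL, and the points of B6 CBDL minus B6 sham lie from -0.25 to 0.24.

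Within A/J mice, CBDL was set against sham surgery. No member passed the test, with 0 of 14 S-phase and 0 of 20 mitotic genes called and 0.818% of all probe sets. At an unadjusted p under 0.05 there were 1 S-phase and 5 mitotic genes, all lower after CBDL, and 14.2% of all probe sets in either direction. The S-phase gene was Tk1, and 0 of the 12 S-phase genes other than Pcna and Tk1 had such a p. The difference was below 0 for 19 of 20 mitotic genes, the exception being Birc5, and for 9 of 14 S-phase genes. The medians were -0.40 for mitotic and -0.15 for S-phase genes, and -0.03 over all probe sets of a single name.

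Ccnb2, a cyclin that partners Cdk1, had signals of 6.47, 7.23 and 7.06 in A/J CBDL mice, against 7.80, 7.40 and 7.55 in A/J sham mice. The groups did not overlap, and the difference was -0.66 (SE 0.19, adjusted p = 0.151, limma). Aurka had 6.26, 6.47 and 6.45 in A/J CBDL mice, against 6.97, 6.94 and 7.04 in A/J sham mice, which is the clearest separation among the members within this strain (difference -0.59, SE 0.13, adjusted p = 0.0780, limma). Aurka passed the threshold after quantile normalization, with the mean of a gene's probe sets and with only probe sets of 1 name. The study's own list of changed genes holds Aurka as lower after CBDL in A/J mice, at an FDR under 0.05. The study's fold change for Aurka matches the difference found here, so the call differs through the adjusted p. Why the adjusted p differs was not tested. Cenpf, a kinetochore gene, had 5.05, 5.45 and 5.42 in A/J CBDL mice, against 5.94, 5.59 and 5.83 in A/J sham mice (difference -0.48, SE 0.15, adjusted p = 0.176, limma). The groups were apart for 6 of 20 mitotic genes (Ccnb2, Cdc20, Aurka, Ttk, Tpx2 and Cenpf) and for 3 of 14 S-phase genes (Mcm5, Rrm1 and Tk1), and 10.8% of probe sets of a single name were apart in this direction.

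The S-phase genes went both ways. Tk1 had 6.59, 6.65 and 7.06 in A/J CBDL mice, against 7.36, 7.09 and 7.14 in A/J sham mice (difference -0.43, SE 0.13, adjusted p = 0.176, limma). Rrm1 had 7.37, 7.54 and 7.54 in A/J CBDL mice, against 7.90, 7.59 and 7.83 in A/J sham mice (difference -0.29, SE 0.24, adjusted p = 0.623, limma). Ccne2 lay on the other side, with 4.64, 4.50 and 4.36 in A/J CBDL mice, against 4.10, 3.95 and 4.37 in A/J sham mice (difference 0.36, SE 0.23, adjusted p = 0.522, limma). The other MCM, licensing and nucleotide genes lay between -0.28 for Mcm5 and 0.17 for Pcna.

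Within B6 mice no member passed either, and 0.0534% of all probe sets did. No member had an unadjusted p under 0.05, with 7.64% of all probe sets, and no member was wholly lower after CBDL, with 9.11% of probe sets of a single name. The medians were 0.07 for S-phase and -0.03 for mitotic genes, and -0.01 over all probe sets of a single name. The differences of the 34 genes lay between -0.25 and 0.24. The 7 smooth muscle genes described further on were all lower in B6 CBDL than in B6 sham mice with no overlap, with a median of -1.41, though none passed the test. With their mean as a covariate, 33 of 34 members were below 0, with medians of -0.27 for S-phase and -0.34 for mitotic genes. In that fit 9 members had an unadjusted p under 0.05, and the share of all probe sets with such a p was not counted. None of the 35556 probe sets passed in it, members included. Since the smooth muscle means of these groups did not overlap, the part of smooth muscle and that of CBDL cannot be told apart here.

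The S-phase genes farthest from 0 in B6 mice were Ccne2, Cdc6 and Ccne1. Ccne2 had 5.35, 5.19 and 4.56 in B6 CBDL mice, against 5.38, 4.84 and 5.64 in B6 sham mice (difference -0.25, SE 0.23, adjusted p = 0.910, limma). Cdc6, which loads the MCM ring at origins, had 6.78, 6.26 and 6.14 in B6 CBDL mice, against 6.12, 6.16 and 6.17 in B6 sham mice, with 1 high array after CBDL (difference 0.24, SE 0.17, adjusted p = 0.853, limma). Ccne1, the gene of cyclin E1, had 6.23, 6.19 and 6.0 in B6 CBDL mice, against 6.01, 5.96 and 5.90 in B6 sham mice (difference 0.18, SE 0.14, adjusted p = 0.872, limma). All of these overlapped.

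Of the mitotic genes, Ttk, the checkpoint kinase Mps1, had 5.39, 5.15 and 5.03 in B6 CBDL mice, against 5.61, 5.15 and 5.39 in B6 sham mice (difference -0.19, SE 0.14, adjusted p = 0.868, limma). Plk1, a kinase of mitotic entry and spindle formation, had 7.84, 7.53 and 7.26 in B6 CBDL mice, against 8.03, 7.60 and 7.39 in B6 sham mice (difference -0.13, SE 0.24, adjusted p = 0.967, limma). Bub1b had 7.29, 7.14 and 6.79 in B6 CBDL mice, against 7.27, 6.72 and 6.87 in B6 sham mice (difference 0.12, SE 0.22, adjusted p = 0.967, limma). In each case the spread within a group was larger than the difference.

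The strain by CBDL interaction tests whether the CBDL difference was another one in A/J than in B6 mice. No member passed, and 0.0366% of all probe sets did. At an unadjusted p under 0.05 there were 1 S-phase and 3 mitotic genes, and 6.88% of all probe sets. Tk1 was again the S-phase gene, and 0 of the 12 without Pcna and Tk1 had such a p. The interaction was below 0 for 10 of 14 S-phase and 19 of 20 mitotic genes, with medians of -0.16 and -0.33, and -0.02 over all probe sets of a single name. For Kif23 it was -0.24 (SE 0.21, adjusted p = 0.872, limma), for Aurka -0.48 (SE 0.19, adjusted p = 0.689, limma) and for Ccne2 0.61 (SE 0.33, adjusted p = 0.775, limma). A difference in the answer to CBDL between the strains was therefore not shown for any member. Averaged over both strains, no member passed for CBDL against sham, where 1.74% of all probe sets did, and 0 S-phase and 4 mitotic genes had an unadjusted p under 0.05, with 14.1% of all probe sets.

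Within each group the S-phase and mitotic genes had the same lowest array: A/J CBDL array 1, A/J sham array 2, B6 CBDL array 3 and B6 sham array 2. The highest array was the same for both sets in 3 of 4 groups, all but A/J CBDL. The median SD within groups was 0.254 for S-phase and 0.262 for mitotic genes.

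In each of the 4 groups the array lowest in mitotic genes was also the highest in 7 smooth muscle genes (Myh11, Acta2, Tagln, Cnn1, Des, Actg2 and Smtn), which mark the muscle wall. Their mean log2 signal ran from 8.05 to 8.81 in A/J CBDL mice, 6.87 to 9.03 in A/J sham mice, 7.05 to 7.74 in B6 CBDL mice and 8.34 to 8.97 in B6 sham mice. All 7 were higher in A/J CBDL than in B6 CBDL mice with no overlap, with a median difference of 1.09, though none passed the test across all probe sets. With this mean as a covariate, chosen after the data were seen, the medians between A/J CBDL and B6 CBDL mice were -0.36 for mitotic and -0.15 for S-phase genes and no member passed. Kif23 was then at -0.85 (SE 0.17, adjusted p = 0.0576, limma), Tpx2 at -0.77 (adjusted p = 0.173, limma) and Aurka at -0.55 (adjusted p = 0.178, limma). The interaction medians turned to 0.19 for S-phase and 0.14 for mitotic genes, and Ccne2 and Kif23 still passed between sham mice. With the covariate, members with an unadjusted p under 0.05 fell from 20 to 8 between the CBDL groups. They rose from 6 to 18 between sham mice, from 6 to 9 within A/J mice and from 4 to 14 for CBDL over both strains. The share of all probe sets with such a p was not counted in that fit. Since the smooth muscle signal also differs between the CBDL groups, its part in the result and that of the strain cannot be told apart.

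**Figure D5:**
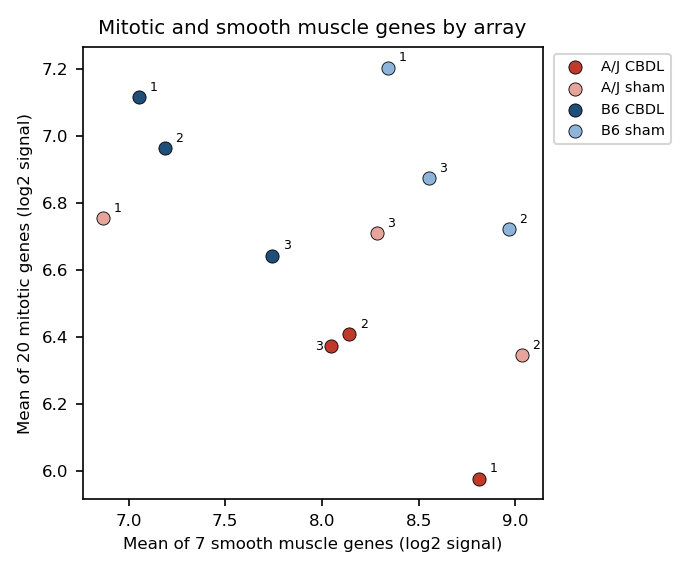
Mean log2 signal of 20 mitotic genes against that of 7 smooth muscle genes, 1 point for each of the 12 arrays, colored by group and marked with the replicate number. Within each group the array farthest to the right is the lowest in mitotic genes, and the A/J CBDL arrays lie to the right of and below the B6 CBDL arrays.

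Liver genes differed with CBDL by more than the cell cycle genes did. In A/J mice 12 of 12 hepatocyte genes were called higher, with 0.818% of all probe sets called. In B6 mice 0 of 12 were called, with 0.0534% of all probe sets. All 12 were nevertheless above 0 in B6 mice, with a median of 1.38, and 7 were higher without overlap. An unadjusted p under 0.05 was found there for 8 of the 12, with 7.64% of all probe sets. The mean log2 signal of the 12 genes was 8.95 to 9.42 in A/J CBDL mice, against 4.77 to 5.42 in A/J sham mice, and 9.06 to 9.31 in B6 CBDL mice, against 6.51 to 8.80 in B6 sham mice. Between A/J CBDL and B6 CBDL mice the list overlapped, with a median of 0.05 and 0 of 12 genes called, beside 1.78% of all probe sets. Between sham mice, where Ccne2 and Kif23 were called, 6 of 12 were called lower in A/J mice, with 1.87% of all probe sets called. All 12 were below 0, with a median of -2.50. The part of the liver genes in the sham differences was not tested. Of the germinal center B cell genes, 6 were measured, with medians of 0.25 for A/J CBDL minus B6 CBDL and 0.22 for A/J sham minus B6 sham and none called, and their part in the result was not tested.

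Other genes of replication and mitosis were read in the same way from lists of gene names. Of 48 other replication genes, Orc6 and Wdhd1 were lower in A/J CBDL than in B6 CBDL mice and none was higher, with a list median of -0.32 and an unadjusted p under 0.05 for 23. Of all probe sets, 1.78% were called and 13.7% had such a p. Orc6, a subunit of the origin recognition complex, had 5.98, 5.85 and 6.04 in A/J CBDL mice, against 6.84, 6.86 and 6.54 in B6 CBDL mice (difference -0.79, SE 0.15, adjusted p = 0.0274, limma). Wdhd1, also known as And-1, which joins helicase and polymerase at the fork, differed by -0.52 (SE 0.10, adjusted p = 0.0222, limma). The same pair was lower in A/J than in B6 mice after sham surgery, Orc6 by a difference of -0.74 (adjusted p = 0.0341, limma) and Wdhd1 by -0.48 (adjusted p = 0.0319, limma), with a list median of -0.16. The groups of sham mice were apart for both, and 1.87% of all probe sets were called there. Both calls between CBDL mice were kept in 15 of 21 alternatives, and both sham calls were lost in 11 of 21, with an adjusted p of up to 0.175 for Orc6 and 0.110 for Wdhd1 (limma).

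Of 61 other mitosis genes, 61 were below 0 between A/J CBDL and B6 CBDL mice, with a median of -0.45. An unadjusted p under 0.05 was found for 44, with 13.7% of all probe sets, and 4 were called, with 1.78% of all probe sets. These were Melk, a kinase of cycling cells, at -0.94 (SE 0.19, adjusted p = 0.0334, limma), Ncapd2, of condensin, at -0.85 (SE 0.15, adjusted p = 0.0168, limma), the kinesin gene Kif2c at -0.65 (SE 0.14, adjusted p = 0.0496, limma) and Nek2, a kinase of centrosome separation, at -0.47 (SE 0.10, adjusted p = 0.0429, limma). Of 21 alternatives, the Ncapd2 call was kept in 15, the Melk call in 11, the Nek2 call in 9 and the Kif2c call in 6. The study's own list of changed genes holds Nek2 as lower after CBDL in A/J mice, at an FDR under 0.05. Here Nek2 was the only gene of the other replication and mitosis lists called between A/J CBDL and A/J sham mice. It had 6.03, 6.19 and 6.12 in A/J CBDL mice, against 6.50, 6.68 and 6.78 in A/J sham mice (difference -0.54, SE 0.10, adjusted p = 0.0348, limma), and it was lower after CBDL over both strains as well, by a difference of -0.39 (adjusted p = 0.0197, limma). The A/J call was lost in 10 of 21 alternatives, with an adjusted p of up to 0.172 (limma), and the call over both strains in 7 of 20. In sham mice no other mitosis gene was called between the strains, the farthest from 0 being Hmgb2 at -0.64 (adjusted p = 0.0710, limma) and Pttg1, the securin gene, at -0.62 (adjusted p = 0.101, limma).

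Of the replication genes, the 2 with the largest difference between A/J CBDL and A/J sham mice were Pold2, a subunit of DNA polymerase delta, at -0.42 (adjusted p = 0.431, limma) and Rfc4, of the clamp loader, at -0.36 (adjusted p = 0.571, limma). In B6 mice they were Rpa3, of the single-strand binding complex, at 0.39 and the helicase gene Hells at 0.35, and of the mitosis genes Pttg1 at -0.36 and the centromere histone gene Cenpa at -0.35, all with an adjusted p above 0.6. None of these passed.

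Of 39 cell cycle regulators, only Cdk4, the kinase of G1 that partners D cyclins, was called, between A/J CBDL and B6 CBDL mice. It had 8.71, 8.89 and 9.02 in A/J CBDL mice, against 9.79, 9.43 and 9.32 in B6 CBDL mice (difference -0.64, SE 0.13, adjusted p = 0.0356, limma). The call was lost in 11 of 21 alternatives, with an adjusted p of up to 0.181 (limma). The list median was -0.10, and 1 of 39 is near the 1.78% of all probe sets called. In sham mice the 2 farthest from 0 were Cdk6, the relative of Cdk4, at -0.43 and Cdkn2c, an inhibitor of both, at -0.43 (adjusted p = 0.183 and 0.207, limma). Between A/J CBDL and A/J sham mice they were the antiproliferative gene Btg2 at 0.48 and Gadd45a, of the DNA damage response, at -0.41 (adjusted p = 0.380 and 0.404, limma). Between B6 CBDL and B6 sham mice Myc, which drives growth and division, had 8.12, 7.19 and 7.41 in B6 CBDL mice, against 6.76, 6.88 and 6.97 in B6 sham mice, with no overlap (difference 0.70, SE 0.20, adjusted p = 0.303, limma), and Mdm2, which holds p53 down, was at -0.49 (adjusted p = 0.515, limma).

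Crypt stem cell genes were set beside the cycling genes because both belong to the crypt. Of 13 measured, 4 were lower in A/J CBDL than in B6 CBDL mice, with 1.78% of all probe sets called: Prom1 at -1.08 (SE 0.16, adjusted p = 0.00599, limma), Olfm4 at -0.84 (SE 0.16, adjusted p = 0.0292, limma), the R-spondin receptor gene Lgr5 at -0.74 (SE 0.14, adjusted p = 0.0196, limma) and the ion carrier gene Slc12a2 at -0.64 (SE 0.13, adjusted p = 0.0350, limma). The Prom1 call was kept in all 21 alternatives, while the Lgr5 call was lost in 5, the Olfm4 call in 7 and the Slc12a2 call in 11. Lgr5 had signals of 5.55, 6.10 and 5.97 in A/J CBDL mice, against 6.61, 6.72 and 6.52 in B6 CBDL mice. Of the 13, only Prom1 was called between sham mice, at -1.0 (SE 0.16, adjusted p = 0.00895, limma), with 1.87% of all probe sets called. In both strain comparisons 11 of the 13 were below 0 and 2 were above. The list medians were -0.31 between the CBDL groups and -0.28 between sham mice. The mean of the list ran from 6.69 to 7.03 in A/J CBDL mice, 6.85 to 7.02 in A/J sham mice, 7.16 to 7.37 in B6 CBDL mice and 7.22 to 7.27 in B6 sham mice, so that the A/J arrays lay below the B6 arrays with either surgery.

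Paneth cell genes, also of the crypt, lay on the same side between A/J CBDL and B6 CBDL mice. Of 7 measured, 6 were below 0, with a median of -0.53, and 1 was called, with 1.78% of all probe sets. This was the defensin gene Defa24, at -1.06 (SE 0.14, adjusted p = 0.00275, limma). Between sham mice 6 of 7 were below 0, with a median of -0.23, and Defa24 was again the gene called, with 1.87% of all probe sets. The list's mean ran from 9.56 to 10.0 in A/J CBDL mice and from 9.99 to 10.6 in B6 CBDL mice, with overlap, and its part in the result was not tested.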

How the data were processed

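Total RNA of jejunum was hybridized to 12 arrays of the Affymetrix Mouse Gene ST platform, with 3 arrays in a group. The authors deposited log2 values, for which the labels name RMA and the Affymetrix Expression Console, with versions not given in the sources used here, while the paper's methods name another array and GCRMA. RMA subtracts background, sets the arrays to 1 distribution and sums the probes of a set, so values are relative to that distribution. The table holds 35556 probe sets: 21789 have 1 gene name in the platform table, 1621 several and 12146 none. The values were used as deposited.

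A single fit by limma 3.58.1 (lmFit and eBayes) in R 4.3.3 gave each of the 4 groups its own mean and shared the spread of all 12 arrays, with Benjamini-Hochberg adjustment over all 35556 probe sets and a threshold of 0.05. Comparisons are differences of log2 group means. Tables were made with pandas 2.3.3 in Python 3.11.15 and figures with matplotlib 3.10.9. The members and lists were chosen with earlier results of these data known. The study's list of changed genes, which holds Aurka and Nek2, was seen. List counts and medians are therefore descriptions and no set test was made. Named are members called in any comparison, the 3 members of each set with the largest difference in each comparison of 2 groups, and called genes of the other lists, up to 4, or the 2 with the largest difference where none was called; Mki67, Cdc20, Rrm2, Pcna and the role groups were added after values were seen, as were the stem and Paneth cell genes.

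Arrays that share a replicate number were checked as pairs: their deviations from the group means correlated at -0.31 to 0.36 over 18 pairs, so the arrays were not paired. Alternatives were quantile normalization, subtraction of each array's median, leaving out the 30% dimmest probe sets, a replicate block, array weights, only the arrays compared, the mean of a gene's probe sets, each array left out, and, added after the data were seen, only probe sets with 1 name and the smooth muscle mean as a covariate.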

Additional observations from a re-analysis of the deposited data

How the results depend on the processing

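Of the calls between A/J CBDL and B6 CBDL mice, Kif23 was kept in 20 of 21 alternatives and Aurka and Tpx2 in 12 of 21. No called difference changed sign. The count of members called there was 5 without the 30% dimmest probe sets, where 761 of all 24889 probe sets were called. It was 8 with the mean of a gene's probe sets (659 of 19938 genes called) or only probe sets with 1 name (701 of 21789 called). It was 1 with only the arrays compared (495 of 35556) and 0 with the smooth muscle mean as a covariate (317 of 35556). Between sham mice it was 0 with only the arrays compared (271 of 35556) and 11 with array weights. With the weights 3044 of 35556 probe sets were called there, against 665 without them. A/J sham array 2, the lowest of its group in mitotic genes, had a weight of 2.57, against 0.38 for array 1 and 0.62 for array 3. Between A/J CBDL and A/J sham mice it was 1 after quantile normalization (342 of 35556). It was also 1 with the mean of a gene's probe sets (544 of 19938) and with only probe sets of 1 name (565 of 21789). Over both strains it was 1 with the last 2 of these (857 of 19938 and 905 of 21789).

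With array weights the median was -0.14 for mitotic genes between A/J CBDL and A/J sham mice, -0.48 for S-phase genes between sham mice, and 0.082 for S-phase and -0.016 for mitotic genes in the interaction. With the smooth muscle mean as a covariate the S-phase and mitotic medians were -0.27 and -0.34 in B6 mice, -0.15 and -0.36 between the CBDL groups, and 0.19 and 0.14 in the interaction. The cause of these shifts was not tested.

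With the replicate number as a block, 1 member (Kif23) was called between the CBDL groups, with 421 of 35556 probe sets. Between sham mice 0 members were called, with 508 of 35556. The medians did not move because each block holds all groups.

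Leaving out each array in turn, members called ranged from 1 to 4 between the CBDL groups, 0 to 2 between sham mice and stayed at 0 elsewhere. The S-phase and mitotic medians ranged from -0.53 to -0.27 and -0.75 to -0.51 between the CBDL groups, -0.32 to -0.0057 and -0.41 to -0.14 between sham mice, -0.25 to 0.02 and -0.55 to -0.24 in A/J mice, -0.05 to 0.22 and -0.16 to 0.12 in B6 mice, -0.33 to -0.04 and -0.51 to -0.18 in the interaction, and -0.09 to 0.07 and -0.25 to -0.10 over both strains.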
